A study of Bos taurus with 10 samples.

Results

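Aminoacyl-tRNA synthetases are the enzymes that join each amino acid to its tRNA, so that the ribosome can read the genetic code as protein. Cytosolic enzymes serve translation of nuclear messages and a separate, nuclear-encoded set is imported into mitochondria, where it serves the few proteins made there. The enzymes fall into structural classes I and II, and several cytosolic ones sit with scaffold proteins in a multi-synthetase complex. The synthetases described here were found by gene name on the array. A name had to be a letter followed by ARS, with or without a final 1 or 2, or to be that of a subunit of the phenylalanine enzyme (FARSA, FARSB) or of the joint glutamate and proline enzyme. That gave 35 genes on 92 probes, of 17499 named genes in all: 19 cytosolic and 16 mitochondrial, the latter having names that end in 2. EPRS and EARS2 were named on no probe used here, and the scaffolds AIMP1, AIMP2 and EEF1E1, which charge no tRNA, were left out of the 35. Gene names are those of the array design (NARS, KARS and so on, for which RefSeq now writes NARS1, KARS1), and 89 of the 92 probes were matched to a RefSeq entry.

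The samples were day 7 embryos, counted from the first insemination and flushed from the uterus of superovulated cows. The study asked how senktide, a peptide that activates the neurokinin-3 receptor, bears on embryo quality and stage when given to the cow. The groups were a vehicle (2 samples), senktide infused at 30 nmol/min (4 samples) and senktide infused at 300 nmol/min (4 samples), each infusion intravenous, for 2 h, beginning 48 h into superovulation. All cows were inseminated at 108 and 120 h, and each sample was hybridised to 1 Agilent array in 1 colour. Neither the number of embryos in a sample nor whether samples of a group had different mothers is stated in the labels, so p-values reflect the spread among these samples alone, which may be technical. The extraction text speaks of endometrium, where titles and tissue fields name embryos. In whole embryos, fewer cells of a type and less RNA per cell cannot be told apart.

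The arrays held the embryo markers KRT8, KRT18, GATA2, GATA3, TFAP2C and SOX2 on all 10 arrays, with POU5F1 on 4 and CDX2 and NANOG on none, where "on" means well above background by the scanner software's own flag. Slide 1 carried replicate 1 of every group, slide 2 replicate 2 of every group, and slide 3 replicates 3 and 4 of both senktide doses and no vehicle sample. Relative to each array's bright probes, slide 3 was flagged down to lower signals. On this log2 scale its arrays reached between −5.44 and −5.27, while the arrays of slides 1 and 2 stopped between −3.71 and −2.56. Before scaling, the lowest flagged signals of slide 3, from 9.47 to 11.1, overlapped those of slides 1 and 2, which ran up to 14.9. The bright signal used as the scale was 400 to 481 on slide 3 and 79.4 to 179 on slides 1 and 2. The cause of this difference was not tested. Some markers of other cells were on in senktide samples and in no vehicle sample, as was the embryo marker POU5F1. Of all named genes, 83.4% were on no vehicle array and 63.2% on no array at all. Of 3 leukocyte markers, 0 were on in vehicle and 0 to 2 at each dose (S100A8 on no array), with log2 of their summed signal from −3.10 to −2.64 in vehicle, −3.39 to −2.38 at 30 and −3.12 to −1.93 at 300 nmol/min. Of 2 markers of uterine and oviduct epithelium, 0 were on in vehicle, 1 at 30 and 0 to 1 at 300 nmol/min (OVGP1 on no array), with sums from −4.09 to −2.03, −4.01 to −2.31 and −4.73 to −2.55. Of 2 stroma and 2 blood markers, 0 were on in vehicle and at most 1 of each list at either dose, with COL1A1 and HBB on no array; their sums ran from −2.67 to −1.68, −5.11 to −2.37 and −4.63 to −2.83 (stroma) and from −3.07 to −2.80, −3.57 to −2.40 and −4.16 to −3.51 (blood). Their part in the synthetase results was not tested.

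Each gene was scored by its brightest probe. Of the 35 synthetase genes, 9 were well above background on all 10 arrays, 20 on 2 to 9 arrays, 2 on 1 array and 4 on none. This is 25.7% of the synthetases on every array against 9.19% of all named genes, and 11.4% on no array against 63.2%. These shares are a description; genes of a list are not independent samples, and the difference was not tested.

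Of 19 cytosolic genes, 7 were on all arrays: AARS (alanine), DARS (aspartate), FARSB (the beta subunit for phenylalanine), NARS (asparagine), RARS (arginine), SARS (serine) and YARS (tyrosine). GARS (glycine), IARS (isoleucine) and LARS (leucine) were on 9 arrays, FARSA, the alpha subunit that pairs with FARSB, and KARS (lysine) on 8, and VARS (valine) on 7. GARS and KARS each supply both the cytosol and mitochondria from a single gene. HARS (histidine), QARS (glutamine) and TARS (threonine) were on 4, WARS (tryptophan) on 2, CARS (cysteine) on 1 and MARS (methionine) on none. The median cytosolic gene was on 9 arrays.

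Of 16 mitochondrial genes, 2 (CARS2 and RARS2) were on all arrays. SARS2 was on 9, IARS2 on 8, YARS2 on 7, LARS2 on 6, TARS2 and WARS2 on 5, AARS2 and NARS2 on 4, HARS2 on 3, MARS2 on 2 and FARS2 on 1. PARS2 and VARS2 were on none. The median mitochondrial gene was on 4.5 arrays; the difference from the cytosolic genes was not tested. By structural class, 4 of 17 class I genes and 5 of 18 class II genes were on all arrays. Of the 7 measured members of the multi-synthetase complex, 2 (DARS and RARS) were on all arrays.

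**Figure D1:**
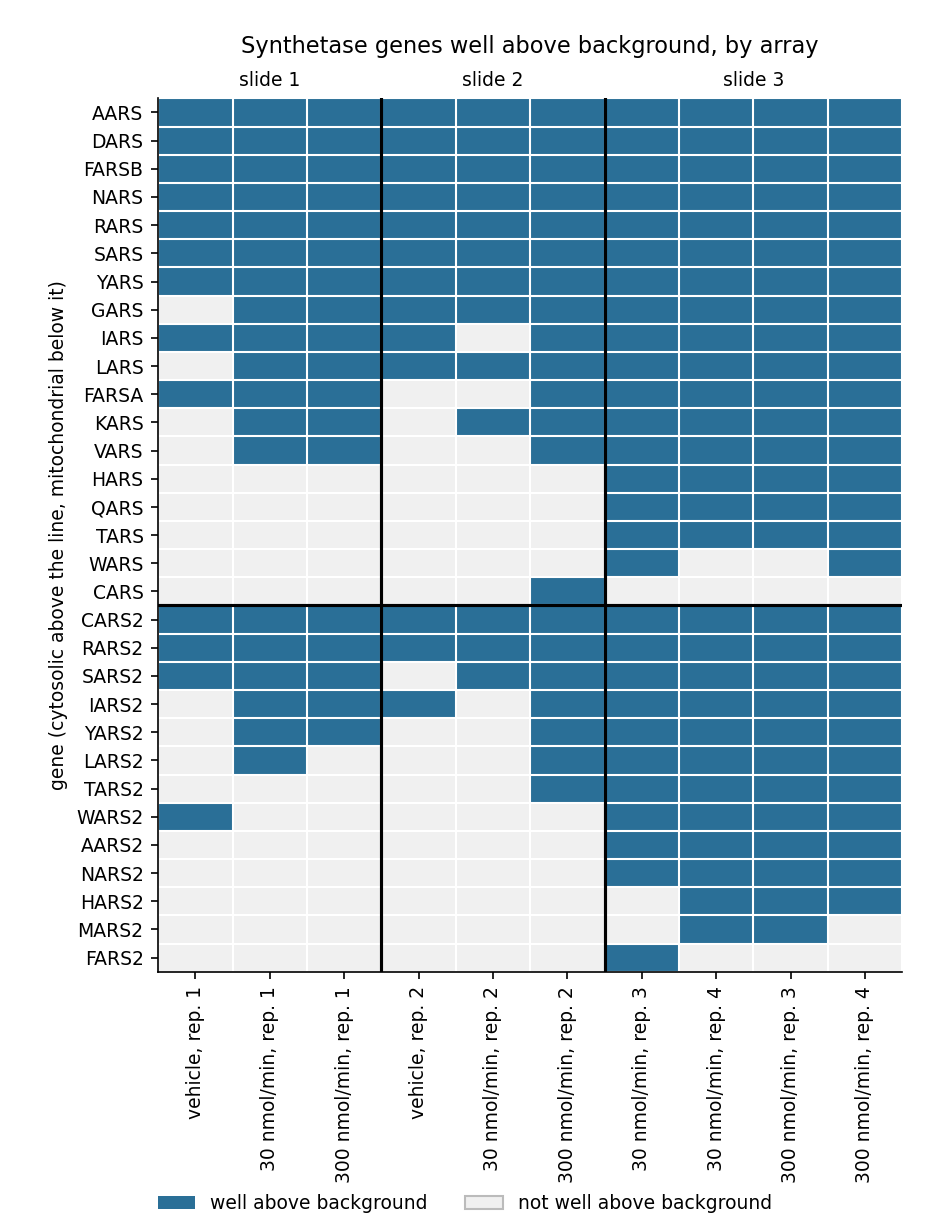
Each row is a synthetase gene that was well above background on at least 1 array and each column an array, ordered by slide; a filled cell means that the gene's brightest probe was well above background. The 9 genes filled across all 10 columns lead their blocks, and 26 genes are filled on all 4 arrays of slide 3.

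Which synthetases were seen varied with the slide. Of the 35 genes, 13 were on in each vehicle sample. At 30 nmol/min the count was 19, 13, 28 and 28 in replicates 1 to 4, and at 300 nmol/min it was 18, 21, 28 and 28. Every count of 28 lay on slide 3. AARS2, FARS2, HARS, HARS2, MARS2, NARS2, QARS, TARS and WARS, 9 genes, were on arrays of slide 3 and on no array of slides 1 and 2. KARS was the only gene of the 35 that was on all 8 senktide arrays and on no vehicle array, a pattern shown by 76 of the 17499 named genes (0.434%). On no vehicle array were 19 of the 35, against 83.4% of all named genes.

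The group means were 13 ± 0 (SD, n = 2) in vehicle, 22 ± 7.35 (n = 4) at 30 and 23.8 ± 5.06 (n = 4) at 300 nmol/min. The difference from vehicle of 9.0 genes at 30 nmol/min had an exact two-sided permutation p of 0.267, and that of 10.8 genes at 300 nmol/min an exact p of 0.133, where 15 arrangements allow none below 0.0667. Within slides 1 and 2 the difference was 6 and 0 genes at 30 nmol/min, and at 300 nmol/min 5 and 8. Between the doses the difference was 1.75 genes (exact two-sided permutation p = 0.829; 70 arrangements, smallest possible p 0.0286), made up of −1, 8 and 0 on slides 1 to 3; without replicate 2 at 30 nmol/min it was −1.25. Over all named genes the share on moved alike, from 11.4% and 15.2% in vehicle to between 27.6% and 29.3% on slide 3.

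The excess over vehicle was not seen at a common signal level. A scaled log2 signal of −2.56, the highest of the arrays' own limits, was applied to every array without the background flag. The counts were 16 and 13 in vehicle, 14, 15, 13 and 10 at 30 nmol/min, and 11, 16, 12 and 13 at the higher dose. They include signal not well above background: on vehicle replicate 1, CARS, LARS and VARS passed the level unflagged. The groups overlapped throughout. Each dose was then 1.5 genes below vehicle (exact two-sided permutation p = 0.6 and 0.667), and the doses differed by 0 genes (exact p = 1).

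**Figure D2:**
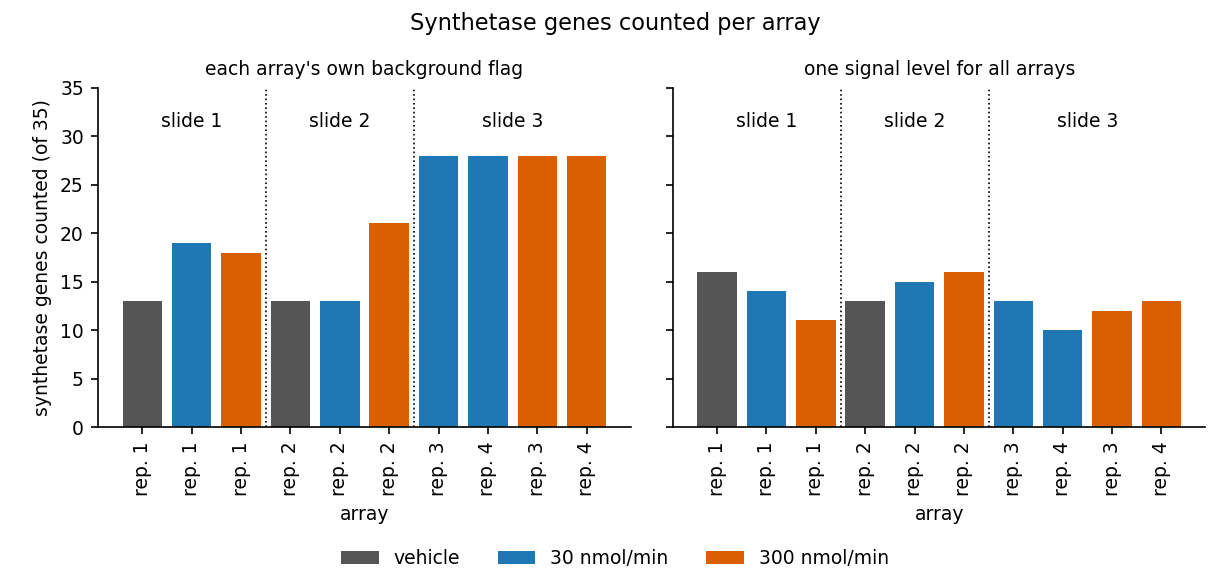
Bars give the number of the 35 synthetase genes counted on each array, coloured by group and divided by slide. On the left, with each array's own background flag, slide 3 stands at 28 in all 4 arrays. On the right, with a single signal level of −2.56 for all arrays and no flag used, the counts lie between 10 and 16.

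Detection also varied with the place of a probe in the transcript. The 92 probes are 60 bases long and 39 of them were on at least 2 arrays, 47 on none. Among transcripts whose probes differed in detection, the probe nearest the 3′ end had the highest count in 23 of 26 synthetase transcripts (88.5%), against 3302 of 4473 (73.8%) over the whole array. The exceptions were transcripts of IARS2, WARS2 and YARS2. For AARS, probes starting at bases 506 and 539 of the transcript were on no array and the probe at 3373 was on all 10. For NARS, probes at 1258 and 1675 were on none and those at 2510, 2689 and 2699 were on all 10. For FARSB, the probe at 659 of the transcript was on none, that at 391 on 1, and those at 1850 and 1856 on all 10. By chromosome position on the minus strand, the NARS probe at 1258 and the FARSB probe at 391 lay on the 3′ side of the other probes. This conflicts with their listed starts, which the counts here use.

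Several of the detected probes hold the bases AATAAA, which many messages carry shortly before their end as a polyadenylation signal. Whether they serve as one here was not tested. The following stretches, 30 bases each, show these bases in probes of AARS, NARS and FARSB that were on all 10 arrays; capitals mark AATAAA. They lie at chr18:1163885-1163944 (plus strand), chr24:59152129-59152188 (minus strand) and chr2:115289295-115289354 (minus strand) for the whole probe, in the build Btau_3.1 of the files; exon and UTR annotation was not used here.
AARS: aggaatcatttttgctgcagagAATAAAaa
NARS: ctattcccagcaatcAATAAAtggacacgt
FARSB: gcattgatgttgAATAAAgtagaaagcagt
AATAAA was held by 28.2% of the 39 synthetase probes on at least 2 arrays and 6.38% of the 47 on none, against 18.6% of 8934 and 6.67% of 32476 such probes over the array. Overlapping probes that hold the same site are counted apart in the 28.2%: FARSB at 1850 and 1856, and NARS at 2689 and 2699. Its reverse complement, TTTATT, was held by 1.09% of the 92 synthetase probes and 3.46% of all probes. No other motif was searched, and a match describes the letters of the probe only.

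The probes of NARS that start at 2689 and 2699 share 50 bases, of which 3 differ. The 30 bases below show 2 of these differences as capitals, to make plain that the design treats near-identical sequence as separate probes.
NARS, probe at 2689: cagtgtattctcaGtaaCctctattcccag
NARS, probe at 2699: cagtgtattctcaAtaaGctctattcccag
Both were on all 10 arrays. Their log2 differences from vehicle were −0.16 and −0.10 at 30 nmol/min, and at 300 nmol/min −0.24 and −0.088, and the NARS probe at 2510 gave −0.029 and −0.11.

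**Figure D3:**
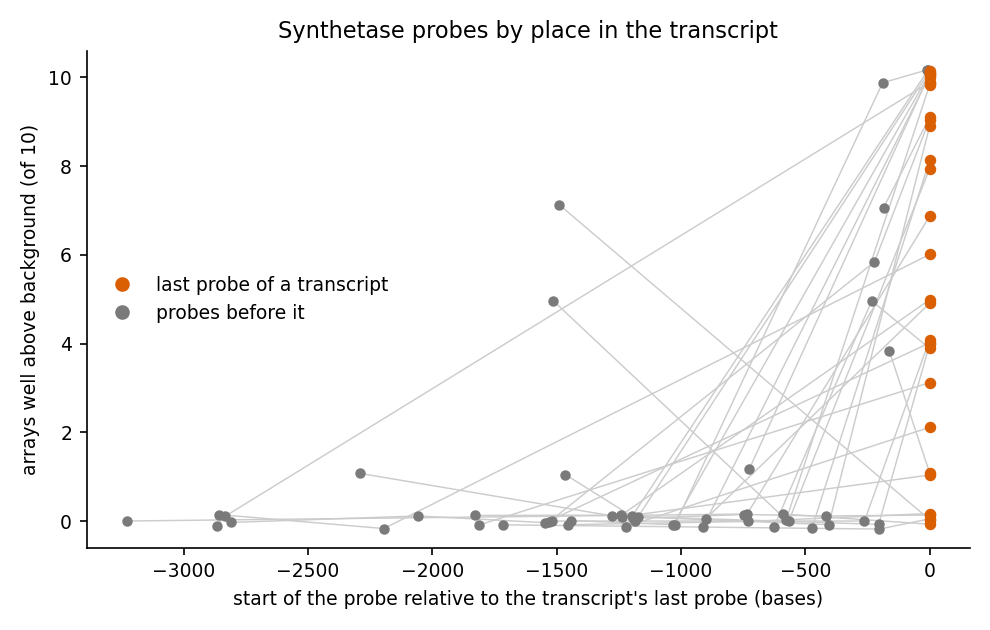
Each point is a synthetase probe of a transcript with more than 1 probe, placed by its start relative to the last probe of that transcript (bases, x axis) and by the number of arrays on which it was well above background (y axis, points shifted slightly so that they do not hide each other). Lines join probes of a transcript; in 23 of 26 transcripts with unequal probes the last probe, in orange, is at or level with the top.

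No synthetase differed between groups past the threshold. Of the 35 genes, 29 were on at least 2 arrays and were tested; the others, among them CARS, FARS2, MARS, PARS2 and VARS2, were not. In limma, with Benjamini-Hochberg adjustment over all tested probes, 0 of the 29 had an adjusted p under 0.05 in any of the 3 comparisons. Over the 5454 tested genes the share called was 0% at 30 nmol/min against vehicle, 0% at 300 nmol/min against vehicle and 0% between the doses; of the 8934 tested probes, 1 was called, at 300 nmol/min, and it was no synthetase probe. With the replicate number as a block that call was lost and 1 other probe was called between the doses, again no synthetase.

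At 30 nmol/min, 12 of the 29 lay above vehicle and 17 below, where all tested genes split into 2200 and 3254. Their median log2 difference was −0.028, against −0.10 over all tested genes. An unadjusted p under 0.05 was reached upward by 1 gene, KARS, and downward by 0, where 5.02% of tested genes reached it upward and 6.12% downward. At 300 nmol/min, 11 lay above vehicle and 18 below, where all tested genes split into 2237 and 3217. The synthetase median was −0.13 against −0.11 over all tested genes. Here 1 gene (KARS) passed the unadjusted threshold upward and 2 (HARS and MARS2) downward, against 5.85% and 7.87% of tested genes. Both comparisons use the same vehicle samples. The splits and medians include genes on no vehicle array, whose differences rest on vehicle signal not well above background. KARS, HARS and MARS2 were among them. Among the 9 synthetases on all arrays, 4 lay above vehicle and 5 below for the lower dose, with a median of −0.056. For the higher dose these were 3, 6 and −0.19. The medians over all 1609 genes on all arrays were −0.060 and −0.067.

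Between the doses, 8 synthetases were higher at 300 than at 30 nmol/min and 21 lower, where all tested genes split into 2602 and 2852. The 17 tested cytosolic genes split into 2 higher and 15 lower, with a median of −0.089, and the 12 mitochondrial ones into 6 and 6, with a median of −0.054; the median over all tested genes was −0.013. VARS was the only one with an unadjusted p under 0.05, upward, where 1.67% of tested genes passed upward and 1.21% downward. With the replicate number as a block, VARS passed upward and HARS downward, against 2.24% and 2.55% of tested genes, and 0 synthetases and 0% of tested genes were called.

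The signs against vehicle followed the scaling. With each array's 75th percentile taken over all probes in place of the 2491 on all arrays, the median of all tested probes moved to 0.95 at 30 and 1.06 at 300 nmol/min, and 28 of 29 and 27 of 29 synthetases lay above vehicle, with medians of 1.03 and 1.04. With the all-probe median as the scale, 29 and 28 of 29 did; between the doses both scalings gave 16 higher and 13 lower. With normexp background correction and quantile normalization the splits were 18 to 11, 20 to 9 and 11 to 18. In each of these settings 0 synthetases were called by limma; the smallest adjusted p of a synthetase was 0.069, at 30 nmol/min after quantile normalization. Quantile normalization called 0.312% of tested genes at 30 nmol/min, 1.17% at 300 nmol/min and 0% between the doses, and both all-probe scalings called 0 probes. Leaving out vehicle replicate 1 called 0.258% and 0.295% of tested genes at 30 and 300 nmol/min, leaving out replicate 2 called 0.46% and 0.533%, and 0 synthetases were among them.

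**Figure D4:**
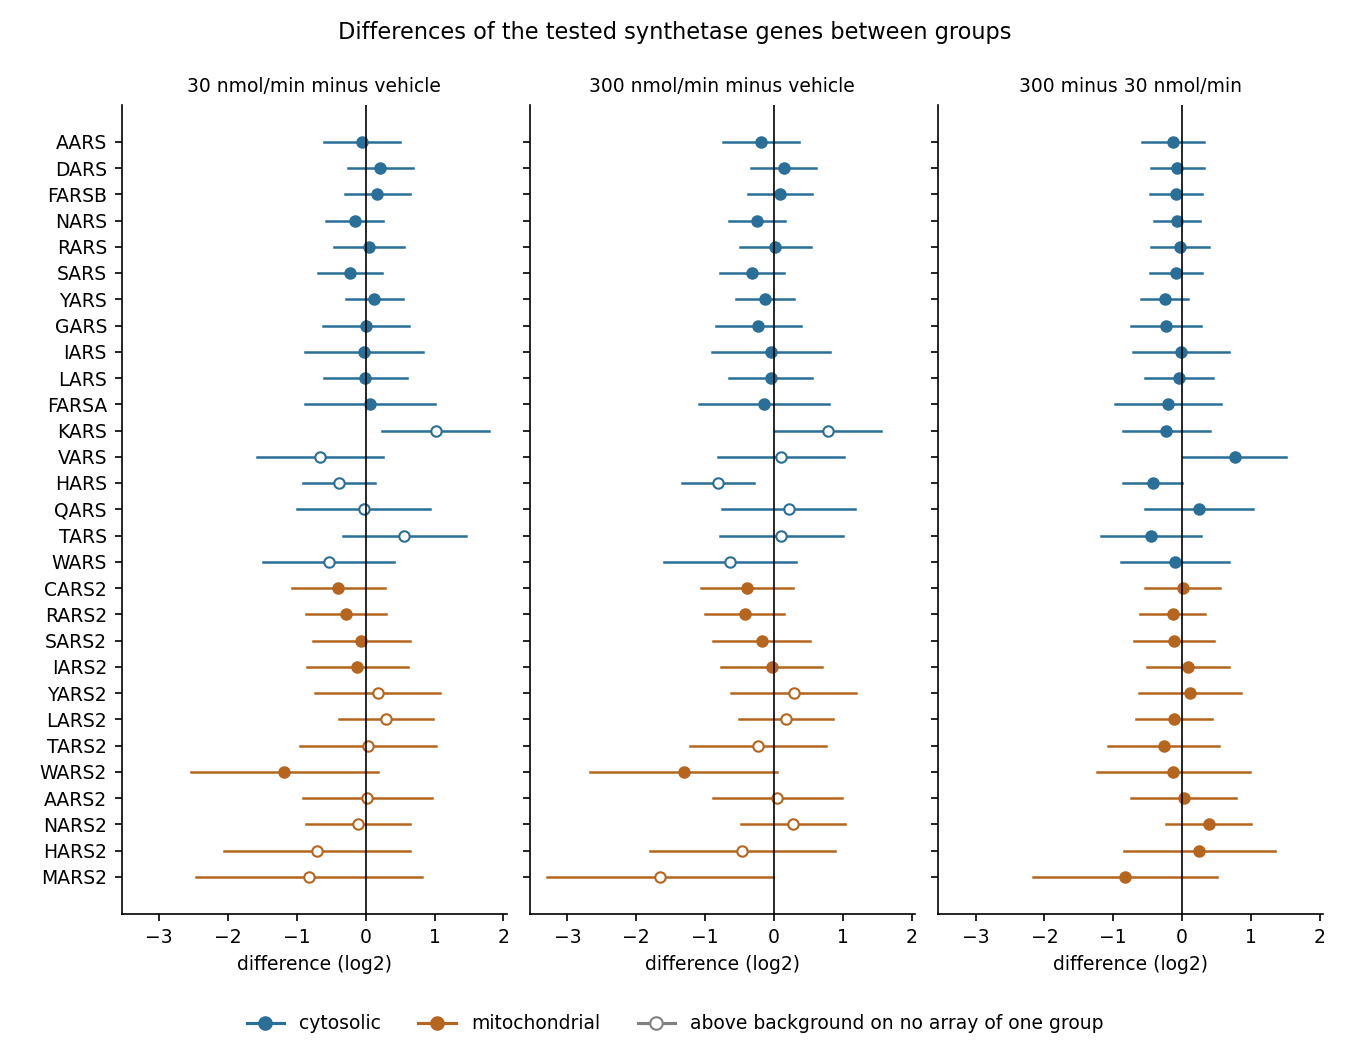
Points give the log2 difference of each of the 29 tested synthetases in the 3 comparisons and lines its 95% confidence interval from limma, with no adjustment for the number of genes. Open points are genes above background on no array of a group; most intervals cross 0, among them all 9 genes that were on all arrays.

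The 9 synthetases on all arrays are the best measured, and their values follow as log2 signals relative to each array's scale, which compare samples for a gene and not genes with each other. NARS, which charges asparagine, was at −0.16 and 0.11 in vehicle, −0.069, −0.10, −0.28 and −0.30 at 30 nmol/min and −0.36, −0.33, −0.18 and −0.19 at the higher dose. Replicates 1 and 2 at 30 nmol/min lay between the vehicle values, and every value at 300 nmol/min lay below both. Of the 9 synthetases on all arrays, NARS and CARS2 lay wholly below vehicle at 300 nmol/min, as did 16.1% of the 1609 genes on all arrays; 0 of the 9 did at 30 nmol/min, against 12.2%. The difference was −0.16 (SE 0.18, limma adjusted p = 0.726) at 30 and −0.24 (SE 0.18, adjusted p = 0.53) at 300 nmol/min, the latter with a 95% interval from −0.65 to 0.17.

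AARS, which charges alanine, was at −0.94 and −0.11 in vehicle, −0.67, −0.33, −0.69 and −0.65 at 30 nmol/min and −0.81, −0.68, −0.67 and −0.70 at the higher dose. The vehicle samples were the lowest and the highest of the 10. RARS, which charges arginine, showed the same spread of the vehicle pair: −2.31 and −1.56, against −1.93, −1.73, −1.89 and −1.99 at 30 nmol/min and −1.93, −1.83, −2.04 and −1.86 at the higher dose. Every senktide value of RARS thus lay inside the vehicle range. Their differences from vehicle were between −0.19 and 0.053, with 95% limits between −0.73 and 0.56.

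DARS, the aspartate enzyme of the multi-synthetase complex, was at −1.34 and −1.75 in vehicle, −1.30, −1.41, −1.16 and −1.47 at 30 nmol/min and −1.69, −1.29, −1.32 and −1.33 at the higher dose. FARSB, the beta subunit of the phenylalanine enzyme, was at −1.30 and −1.82 in vehicle, −1.32, −1.24, −1.44 and −1.54 at 30 nmol/min and −1.32, −1.43, −1.57 and −1.57 at the higher dose. In both genes vehicle replicate 2 was the lowest of the 10 and the groups overlapped. The DARS difference was 0.21 (SE 0.21, limma adjusted p = 0.681) at 30 and 0.14 (SE 0.21, adjusted p = 0.765) at 300 nmol/min.

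SARS, which charges serine and also the selenocysteine tRNA, was at −1.69 and −2.04 in vehicle, −2.23, −1.83, −2.18 and −2.14 at 30 nmol/min and −1.94, −2.28, −2.27 and −2.24 at the higher dose. Vehicle replicate 1 was the highest and 3 of 4 values at 300 nmol/min lay below both vehicle values. The difference at 300 nmol/min was −0.32 (SE 0.21, limma adjusted p = 0.482), and −0.25 and −0.24 within slides 1 and 2; without vehicle replicate 1 it was −0.14 and without replicate 2 −0.49, and its sign turned with the 75th percentile of all probes as the scale (0.86). SARS was also the gene whose probes differed most in that comparison. Its other tested probe, which starts at base 160 of the transcript, was on 5 arrays and on no vehicle array. The fitted difference of that probe, −1.11, had the same sign, but rests on vehicle signal not well above background.

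YARS, which charges tyrosine, was at −1.23 and −1.26 in vehicle, −1.10, −0.94, −1.10 and −1.35 at 30 nmol/min and −1.41, −1.43, −1.21 and −1.44 at the higher dose. Replicates 1 to 3 at 30 nmol/min lay above both vehicle values, and 3 of 4 at 300 nmol/min below both. The dose difference was −0.25 (SE 0.15, limma adjusted p = 0.999), of which −0.31, −0.49 and −0.11 came from slides 1, 2 and 3. Another YARS probe, on 5 arrays, gave the opposite sign, 0.24. At 30 nmol/min, where YARS was the gene whose probes differed most, the probe on all arrays gave 0.13 (SE 0.19, limma adjusted p = 0.799). The other was on no vehicle array. Its fitted difference of −0.70 had the opposite sign, but rests on vehicle signal not well above background.

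Of the mitochondrial enzymes on all arrays, CARS2 (cysteine) was at −1.68 and −1.70 in vehicle, −2.04, −1.53, −2.23 and −2.56 at 30 nmol/min and −1.82, −1.81, −2.37 and −2.33 at the higher dose. RARS2 (arginine) was at −2.13 and −1.89 in vehicle, −2.20, −2.04, −2.52 and −2.43 at 30 nmol/min and −2.90, −2.44, −2.10 and −2.30 at the higher dose. For CARS2 every value at 300 nmol/min lay below the vehicle pair; the lowest 4 values were those of slide 3, where no vehicle sample lay, and with slides 1 and 2 alone the differences were −0.36 and 0.17 at 30 nmol/min, and at 300 nmol/min −0.14 and −0.11. For RARS2 the difference at 300 nmol/min was −0.42 (SE 0.26, limma adjusted p = 0.452, 95% interval −1.0 to 0.15), and −0.77 and −0.55 within slides 1 and 2.

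**Figure D5:**
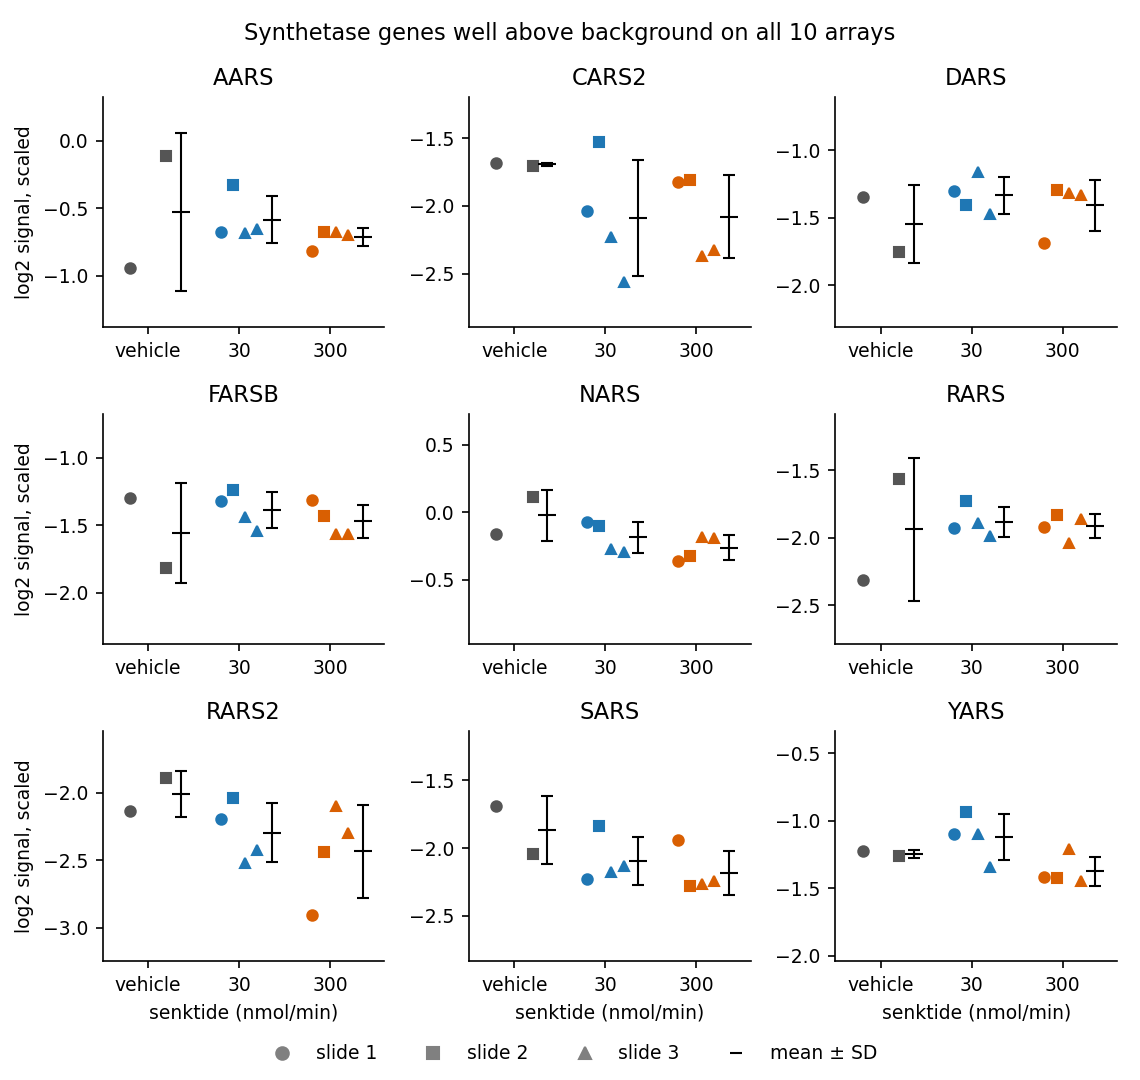
Each panel is a gene on all 10 arrays; points are samples (shape by slide, colour by group), on a scaled log2 axis of the same span in every panel, and black marks give the mean and SD of each group. In CARS2 and NARS every sample at 300 nmol/min lies below the vehicle pair, as in 16.1% of all genes on all arrays; in the other panels the groups overlap, and CARS2 on slide 3 (triangles) lies below its other samples.

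The SD of these 9 genes within groups ran from 0.12 for NARS to 0.35 for CARS2, with a median of 0.19, against a median of 0.22 for all genes on all arrays.

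KARS, the lysine enzyme, was the synthetase with the smallest p at 30 nmol/min. Its value was −3.67 and −3.56 in vehicle, neither well above background, −3.09, −2.45, −1.79 and −3.05 at 30 nmol/min and −2.97, −2.97, −2.64 and −2.73 at the higher dose, all well above it. No senktide value overlapped the vehicle pair, and 4.58% of tested genes likewise had all 8 senktide samples above both vehicle samples. The limit, the lowest flagged signal of an array, was −2.56 for vehicle replicate 1, above 6 of the 8 senktide values, and −3.30 for replicate 2, below all 8. It is no strict bound, as VARS at −2.39 in replicate 1 went unflagged. Over the mean of these limits KARS was 1.26-fold higher at 30 and 1.07-fold higher at 300 nmol/min. Its mean at 300 nmol/min, −2.83, lay below the limit of replicate 1. The fitted differences from the measured signals were 1.02 (SE 0.35, limma adjusted p = 0.347) and 0.78 (SE 0.35, adjusted p = 0.361), neither past the threshold. They were 2.08 and 1.96 with the 75th percentile of all probes as the scale, 2.34 and 2.21 with the all-probe median, 0.61 and 0.48 after quantile normalization, and 0.34 and 0.10 with signals raised to each array's limit. Within slides 1 and 2 they were 0.58 and 1.1 at 30 nmol/min, and at 300 nmol/min 0.70 and 0.58. The probe lies at chr18:2342210-2342269 (minus strand, Btau_3.1) and starts at base 1621 of the transcript. Its first 30 bases are shown because KARS was the only synthetase on all senktide arrays and no vehicle array.
KARS: caccgctctaaagagggtctgactgagcgt

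HARS, the histidine enzyme (probe at chr7:51125198-51125257, minus strand), was on the 4 arrays of slide 3 only. Its measured signal was −2.88 and −3.05 in vehicle, −3.35, −3.44, −3.47 and −3.17 at 30 nmol/min and −3.83, −4.21, −3.59 and −3.48 at the higher dose. The vehicle pair lay highest, as in 7.02% of tested genes, but neither was well above background, so those values are not measured levels and no fold is given. The fitted difference was −0.39 (SE 0.23, limma adjusted p = 0.512) at 30 and −0.82 (SE 0.23, adjusted p = 0.235) at 300 nmol/min, and both signs turned when arrays were scaled to all probes (0.66 and 0.36). Between the doses it was −0.42 (SE 0.19, adjusted p = 0.999), and −0.49, −0.77 and −0.22 on slides 1, 2 and 3.

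VARS, the valine enzyme (probe at chr23:27349474-27349531, plus strand), had the smallest p between the doses. It was at −2.39 and −2.98 in vehicle, neither well above background, −2.98, −4.33, −2.63 and −3.45 at 30 nmol/min and −2.54, −2.48, −2.62 and −2.68 at the higher dose. The value of −4.33, in replicate 2, was not well above background, and replicate 3 at 30 nmol/min fell among the values of the higher dose. The difference of 0.76 (SE 0.33, limma adjusted p = 0.999) was 0.43, 1.84 and 0.39 on slides 1, 2 and 3.

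Of the mitochondrial genes, WARS2 (tryptophan; probe at chr3:26107289-26107348, plus strand) was on 5 arrays, vehicle replicate 1 and all 4 of slide 3. It was at −1.87 and −3.44 in vehicle, −3.54, −2.99, −4.33 and −4.51 at 30 nmol/min and −3.31, −3.34, −4.65 and −4.57 at the higher dose, with the 4 lowest values again on slide 3. The difference at 30 nmol/min of −1.18 (SE 0.61, limma adjusted p = 0.478) was −1.67 on slide 1 and 0.46 on slide 2; without vehicle replicate 1 it was −0.40 and without replicate 2 −1.97, with slide as a block it was −0.57, and with the all-probe median as the scale 0.14. MARS2 (methionine), on 2 arrays, had a fitted difference of −1.65 at 300 nmol/min (SE 0.73, limma adjusted p = 0.361) from vehicle samples at −3.41 and −5.21 that were not well above background; it was −0.75 without vehicle replicate 1, −2.55 without replicate 2 and 0.031 after quantile normalization.

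Among the genes that work beside the synthetases, 0 were called as well. Of 52 listed (scaffolds, editing, amidation and formylation, selenocysteine, tRNA processing and export, delivery to the ribosome, and the amino acid response), 49 were on the array and 29 tested. In limma 0 of the 29 had an adjusted p under 0.05 in any comparison; at 30 nmol/min 1 had an unadjusted p under 0.05 upward and 3 downward, at 300 nmol/min 1 and 3, and between the doses 2 and 1. Of all tested genes, 5.02% passed this unadjusted threshold upward and 6.12% downward at 30 nmol/min. The shares were 5.85% and 7.87% at 300 nmol/min, and 1.67% and 1.21% between the doses. The median differences of the 29 related genes were −0.13, −0.13 and −0.0085, against −0.10, −0.11 and −0.013 over all tested genes. Without vehicle replicate 2, POP4 and QRSL1 were called at 300 nmol/min, where 0.533% of tested genes were. This leaves 1 vehicle sample, assumed to vary like the other groups, and both genes were on no vehicle array. After quantile normalization MTFMT was called at 300 nmol/min, where 1.17% of tested genes were.

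The scaffold AIMP1, on all arrays, differed from vehicle by −0.075 (SE 0.17) and −0.084 (SE 0.17) at 30 and 300 nmol/min, and AIMP2, also on all arrays, by 0.025 (SE 0.26) and −0.39 (SE 0.26). EEF1A1, which carries charged tRNA to the ribosome, differed by −0.15 and −0.13, and TUFM, its mitochondrial counterpart, by 0.0086 and −0.20. SSB, which binds new tRNA transcripts, differed by −0.19 and −0.086. ATF4, the transcription factor of the amino acid response, differed by −0.071 and −0.10, and the amino acid transporters SLC7A5 and SLC38A2 by 0.16 and −0.18 at 30 and by 0.23 and −0.21 at 300 nmol/min. These 8 genes were on all arrays, and their limma adjusted p against vehicle lay between 0.486 and 0.986.

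DDIT3, a stress target of ATF4, was the listed gene with the smallest p at 30 nmol/min. It was at −2.78 and −2.28 in vehicle, −3.96, −4.92, −3.31 and −3.99 at 30 nmol/min and −3.48, −2.74, −2.36 and −2.74 at the higher dose. It was well above background in vehicle replicate 2, in replicates 3 and 4 at 30 nmol/min and in replicates 2 to 4 at the higher dose, so the lowest value, −4.92, is signal not above background. All values at 30 nmol/min lay below the vehicle pair, as in 11.6% of tested genes, with a difference of −1.52 (SE 0.43, limma adjusted p = 0.3), and the difference between the doses was 1.22 (SE 0.36, adjusted p = 0.999). TRIB3, another target of ATF4, was on 2 arrays, both at 300 nmol/min, and had the smallest p between the doses (1.37, SE 0.32, limma adjusted p = 0.999). MTFMT, which formylates the mitochondrial initiator tRNA, was on both vehicle arrays and on 1 array of each dose, and differed by −2.14 (SE 0.82, limma adjusted p = 0.396) at 30 nmol/min. Its lowest values, −5.34 and −5.84 at 30 nmol/min and −4.96 and −4.61 at the higher dose, were those of slide 3, where no vehicle sample lay. ELAC1, which trims tRNA ends, came next by p at 30 nmol/min, at −1.15 (SE 0.46, limma adjusted p = 0.413), though it was above background on no array of either group. At 300 nmol/min the smallest p were those of POP4, a subunit of RNase P that was on no vehicle array and on all 4 at that dose (0.81, SE 0.28, limma adjusted p = 0.278), QRSL1, on 1 array of each dose and of the mitochondrial amidotransferase (−1.02, SE 0.37, adjusted p = 0.293), and SECISBP2, of selenocysteine insertion (−0.72, SE 0.27, adjusted p = 0.305). Between the doses POP5, another RNase P subunit, was the third, at −0.46 (SE 0.17, adjusted p = 0.999). None of these 9 differences was past the threshold.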

How the data were processed

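Total RNA of 10 bovine embryo samples was hybridised to 1-colour Agilent arrays, and the sample titles gave groups and replicate numbers. The deposited scanner files hold an intensity per spot made, per the file headers, with Feature Extraction 11.5.1.1 (10.5.1.1 per the submitters' processing notes), background-subtracted by the authors' scanner software and not scaled between arrays. Whether a spot was well above background or an outlier was taken from the deposited flags. The authors' deposited series matrix holds log2 values; compared with the scanner files, it was the log2 signal minus the array's 75th percentile of all probes minus the probe's median, for at least 99.96% of values to within 0.01. It served as an alternative.

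Here log2 of the processed signal was reduced by each array's 75th percentile over the 2491 of 43653 probes well above background on all arrays. A probe was tested when well above background on at least 2 arrays (8934 probes, 5454 genes by the brightest tested probe). limma 3.58.1 (R 4.3.3) fitted all 3 groups, with Benjamini-Hochberg adjustment over all tested probes and a threshold of 0.05; the script was tested on simulated data. Counts per array were compared by exact two-sided permutation over samples. Where all arrays of a group left a gene short of background, the fold was taken from the other group's mean over the mean of that group's limits (or the probe's own signal where higher). An array's limit was its lowest flagged signal, which is no strict bound. The fold is left out where under 1. Of the synthetase spots, 0 were saturated and 0 outliers. Symbols came from a RefSeq table of ARS-UCD2.0, used for names only; 70 of 92 probes matched by accession. Among all accessions, 1280 of 1430 overlapping probe pairs (89.5%) aligned at the given starts with at most 5 mismatches.

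Synthetases are named with their number of arrays, except 1 that is counted but not reported here by name. Values on every array are given for those on all arrays, and statistics for the 3 with the smallest p of each comparison and the gene whose probes differed most; DDIT3 was the only listed pathway gene given on every array, chosen after its values were seen. The members and lists were chosen with earlier results of these data known. Deviations of same-numbered senktide samples from their group means correlated at r = 0.487, 0.494, 0.565 and 0.574, all over 0.1, the level at which the numbers were taken to pair the 2 doses. Differently numbered samples of slide 3 correlated at 0.492 and 0.544 and those of slides 1 and 2 at 0.413 and 0.417, so slide 3 against slides 1 and 2 makes up much of the pattern. With 2 vehicle samples, whose deviations mirror each other, pairing with vehicle could not be checked. Slide and scan marked the same arrays. Alternatives were other scalings, normexp with quantile normalization, the series matrix, other filters and floors, slide or replicate number as a block and each array left out. A common signal level, applied without the flag, and slides 1 and 2 alone were added after seeing the data. The number of arrays limits the precision. Figures were drawn with Python 3.11.15, pandas 2.3.3, numpy 2.4.6 and matplotlib 3.10.9.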

Additional observations from a re-analysis of the deposited data

Results flagged for a closer look

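Of 30 groups of 4 samples examined (synthetases on all arrays, those given with statistics, and the counts per array), 5 held a sample farther from the rest than Dixon's 95% critical value of 0.829 for 4 samples allows, where chance gives about 1 in 20. In AARS it was replicate 2 at 30 nmol/min (−0.33, above the others) and replicate 1 at 300 nmol/min (−0.81, below the others). In DARS it was replicate 1 at 300 nmol/min (−1.69, below the others), in SARS replicate 1 at 300 nmol/min (−1.94, above the others) and in YARS replicate 3 at 300 nmol/min (−1.21, above the others). Replicate 1 at 300 nmol/min thus accounts for 3 of the 5, in both directions.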

How the results depend on the processing

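No synthetase was called by limma under the alternatives run, where up to 1.17% of tested genes were (at 300 nmol/min after quantile normalization). Of 21 alternative values each, the synthetase median relative to all tested genes had the opposite sign in 3 at 30 nmol/min, 6 at 300 nmol/min and 1 between the doses. At the common signal level, where the flag was not used, the count of synthetases per array turned against vehicle (−1.5 genes at 30 and −1.5 at 300 nmol/min). Between the doses the difference was then 0. The flagged count turned between the doses within slide 1 (−1). Its difference was 0 within slide 2 at 30 nmol/min, and 0 between the doses within slide 3. Leaving out each array gave 7 to 12, 9.33 to 12.7 and −1.25 to 3.75 genes, the lowest without replicate 2 at 30 nmol/min. The synthetase median relative to all tested genes was 0.076 at 30 nmol/min. It was 0.015 (quantile), 0.0066 (probes on all arrays), 1.11 (no filter) and 0.22 (signals raised to each array's limit). It was 0.13 (slide block), 0.13 (replicate block) and −0.016 to 0.080 without single arrays. At 300 nmol/min it was −0.018, and −0.12 (probes on all arrays), 1.17 (no filter), 0.25 (raised signals) and −0.075 to 0.027 without single arrays. Between the doses it was −0.076, and 0.030 (no filter), −0.021 (raised signals) and −0.11 to −0.028 without single arrays. Related genes called at 300 nmol/min numbered 1 after quantile normalization and 0 to 2 without single arrays. The cause was not tested.

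HARS turned at 30 nmol/min to 0.66 (75th percentile of all probes), 0.93 (median of all probes), 0.16 (quantile) and 0.66 (series matrix), and at 300 nmol/min to 0.36, 0.61, 0.051 and 0.35. WARS2 turned to 0.14 with the median of all probes. SARS turned at 300 nmol/min to 0.86, 1.11 and 0.86 with both all-probe scalings and the series matrix, and MARS2 to 0.031 with quantile normalization. With the replicate block, paired by number, no synthetase or related gene was called; the count on per array then differed by 3.0, 6.5 and 1.75 genes, and KARS by 0.86 and 0.63. Signals near background limit what the dim genes can show.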
